A study of Homo sapiens with 8 samples.

Results

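The 37 genes described here are those of the count table whose symbols have the form NDUFA, NDUFB, NDUFC, NDUFS or NDUFV followed by a number, out of 59414 genes counted. They encode nuclear-encoded subunits of respiratory complex I. The symbols were matched without use of any measured value. By their known place in the complex, 7 encode core subunits, 29 encode accessory subunits and 1, NDUFA4, encodes a protein now assigned to complex IV. NDUFAB1, the mitochondrial acyl carrier protein that is also a complex I subunit, lies outside the naming rule and is given beside the others.

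All 8 libraries came from HEK293T, an established human embryonic kidney cell line, carrying PB-TRIBE-STAMP. TRIBE and STAMP tether RNA-editing enzymes to an RNA-binding protein, so that a bound mRNA acquires A-to-I edits from an adenosine deaminase or C-to-U edits from a cytidine deaminase. In the first experiment, sorted processing bodies (P-bodies; 2 libraries, 50 ng of RNA each) were compared with cytosol (2 libraries, 100 ng each); the labels call the former total RNA and the latter cytoplasmic RNA. In the second, unsorted cells in which EDC4 was targeted by siRNA (siEDC4, 2 libraries) were compared with cells given the siRNA labelled siNC (2 libraries), from 500 ng of total RNA. The fusion proteins, the preparation of the cytosol and the time after transfection are not stated in any source used here, and no library without the editors was analysed here. Replicate numbers 1 and 2 coincide with batches 1 and 2 in the labels. Whether the replicates are separate cultures is not stated, and the p-values then reflect no more than the spread between these libraries, which may be technical.

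Complex I passes electrons from NADH to ubiquinone and pumps protons across the inner mitochondrial membrane. Its core subunits, conserved from bacteria, take up electrons (the N module), hand them to ubiquinone (the Q module) or, encoded by mitochondrial DNA, pump protons in the membrane arm. The accessory subunits are mostly small proteins that surround the core and are needed for its assembly and stability. P-bodies are cytoplasmic granules of untranslated mRNAs with proteins of translational repression and decapping, among them EDC4, a scaffold of the decapping enzyme.

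The sort libraries held 21186963 to 23716926 counted reads, and the editing data 12048147 to 15947999 reads per library in the sort and 5697417 to 6294767 in the knockdown experiment. All 8 marker genes taken as typical of HEK293T were detected, and 2 of them were higher, 5 lower and 1 not past the test in the sorted P-bodies. The blood markers CD3E and HBB had no count, and the summed blood markers stayed at 0.0800 to 0.470 CPM (counts scaled to one common library total) in the 4 libraries. Markers of 2 other cell types were detected. The summed fibroblast markers (COL1A1, COL3A1, DCN and LUM) lay at 16.5 to 30.5 CPM. The summed markers of epithelial tumour lines (EPCAM, ESR1, KRT5 and GATA3) lay at 19.9 to 24.2 CPM. Counts from the mitochondrial chromosome made up 1.70% and 1.04% of the sorted libraries and 6.57% and 6.41% of the cytosol libraries. Their part in the results below was not tested. The 2 siNC libraries agreed within sampling noise over 10642 genes (chi-square per degree of freedom 1.02, against 3.46 between the siEDC4 libraries) and were counted as 1 sample.

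Most complex I mRNAs were scarcer in sorted P-bodies than in cytosol, and the mRNA of the largest core subunit was the main exception. Of the 37 genes, 30 were lower in the sorted P-bodies past an adjusted p of 0.05 (edgeR's quasi-likelihood test), where 29.0% of the 18745 genes tested were lower. NDUFS1 and NDUFA5 were higher, where 28.8% of all genes tested were higher, and 5 genes did not pass. All 37 passed the filter on low counts. The median log2 difference, sorted P-bodies over cytosol, was -0.96 over the 37 genes and -0.03 over all genes tested. Scaled by library size alone, the median over all genes was -0.23 and 38.1% of all calls were higher instead of 49.8%, while the complex I counts were again 30 lower and 2 higher. Each of the 30 lower and the 2 higher genes kept its direction in both same-numbered pairs of libraries. This adds no support, since genes that pass in these same libraries nearly have to do so. In fraction data, fewer copies of an mRNA per granule and fewer granules that hold it cannot be told apart, nor can the fraction and its input amount.

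**Figure D1:**
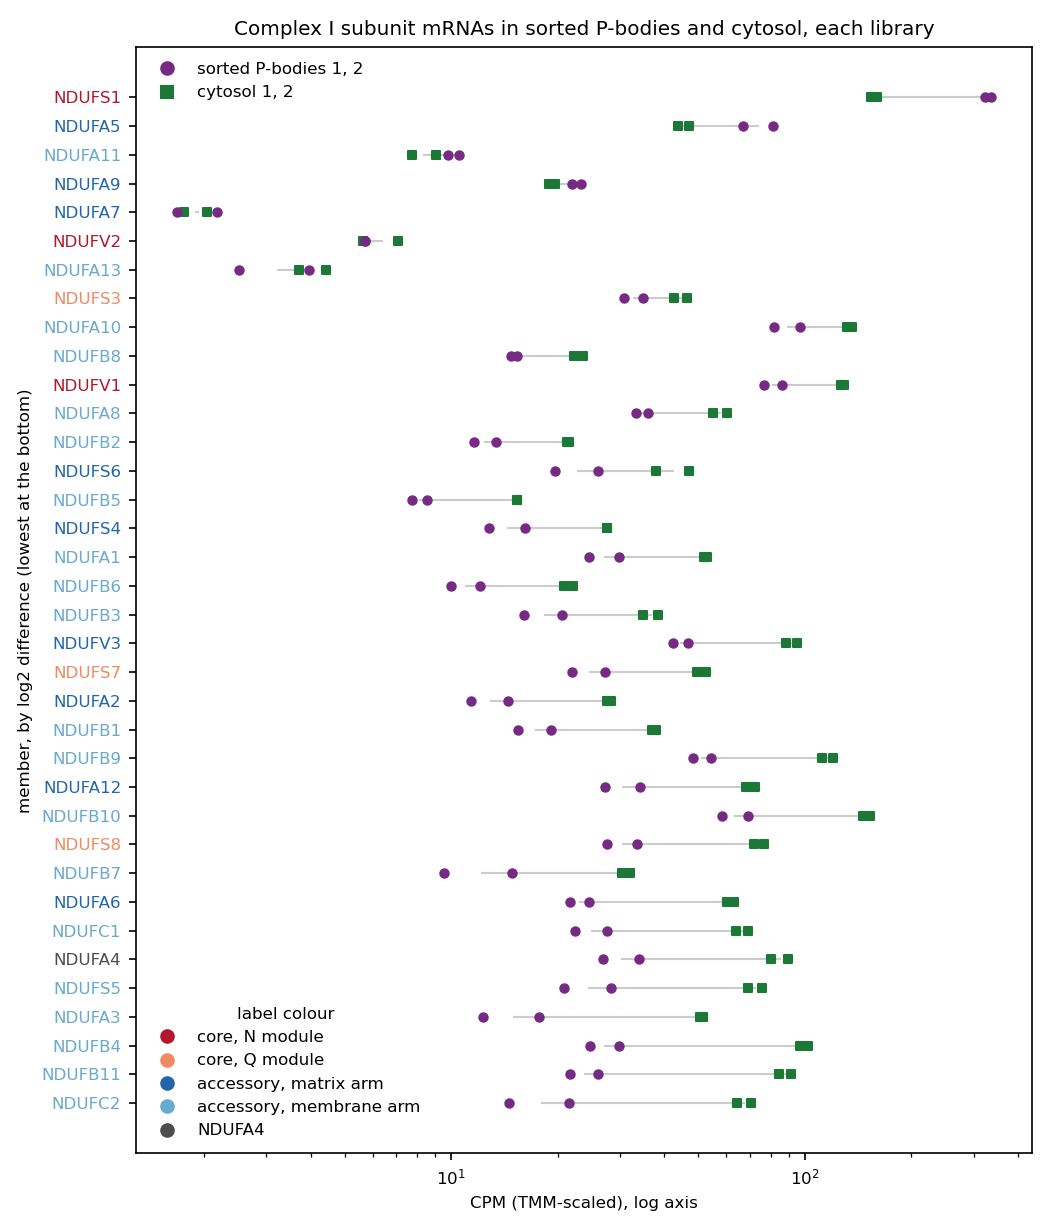
Abundance of 36 of the 37 nuclear-encoded complex I mRNAs in each of the 4 sort libraries, as CPM on a log axis, ordered by the log2 difference between sorted P-bodies (circles) and cytosol (squares). A grey line joins the 2 group means and the colour of a symbol's label gives its role. NDUFS1 and NDUFA5 lie apart with the circles to the right of the squares, while the squares lie to the right for the lower genes.

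In the N module, which takes electrons from NADH, 1 of the 3 core genes was higher, 1 was lower and 1 did not pass. NDUFS1 encodes the largest subunit of complex I and carries several of its iron-sulphur clusters. It stood at 336 and 323 CPM in the sorted libraries and 154 and 159 CPM in cytosol. Both sorted libraries exceeded both cytosol libraries, a log2 difference of 1.07 ± 0.11 (SE; 2.11-fold; edgeR adjusted p = 2.68e-05). NDUFV1, which binds NADH and the flavin cofactor, stood at 86.3 and 76.6 CPM in sorted P-bodies against 126 and 129 CPM in cytosol. It was lower in both sorted libraries, by a log2 difference of -0.65 ± 0.11 (edgeR adjusted p = 0.000669). NDUFV2, an iron-sulphur subunit beside it, had 5.72 and 5.69 CPM in sorted P-bodies against 7.08 and 5.64 CPM in cytosol. Its groups overlapped and it did not pass (log2 difference -0.15 ± 0.17, edgeR adjusted p = 0.470). NDUFV2 shares 771 exonic bases on the same strand with AP005263.1, which had no count, so its low counts are uncertain.

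NDUFS8, NDUFS7 and NDUFS3, core genes of the Q module, which hands electrons to ubiquinone, were lower in sorted P-bodies. NDUFS8, which carries a pair of iron-sulphur clusters, had 33.5 and 27.5 CPM in sorted P-bodies against 76.9 and 71.9 CPM in cytosol. That was the largest drop of a core gene, at -1.28 ± 0.12 (edgeR adjusted p = 1.84e-05), and the groups were well separated. NDUFS7, which holds the last cluster before ubiquinone, had 27.2 and 22.0 CPM against 49.7 and 52.5 CPM, a difference of -1.05 ± 0.12 (edgeR adjusted p = 6.44e-05). NDUFS3, a scaffold of the module, had 34.9 and 30.9 CPM against 42.7 and 46.5 CPM. Its groups did not overlap, but its drop of -0.44 ± 0.11 (edgeR adjusted p = 0.00625) did not pass without the second cytosol library (adjusted p = 0.0970). Reads shared with CELF1 and PTPMT1, which overlap NDUFS3, make its counts uncertain.

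Of the 29 accessory genes, 24 were lower, 1 was higher and 4 did not pass. The fall was more frequent among the 20 subunits of the membrane arm (18 lower, 0 higher, median log2 difference -1.05) than among the 9 of the matrix arm (6 lower, 1 higher, median -0.92), a difference that was not tested. The 3 largest drops were all in the membrane arm. NDUFC2 had 21.5 and 14.6 CPM in sorted P-bodies against 64.2 and 70.6 CPM in cytosol, 3.72-fold lower (log2 difference -1.90 ± 0.16, edgeR adjusted p = 1.25e-05). NDUFB11 had 26.0 and 21.6 CPM against 84.6 and 91.1 CPM, 3.68-fold lower (-1.88 ± 0.12, edgeR adjusted p = 3.87e-06). NDUFB4 had 29.8 and 24.7 CPM against 102 and 97.1 CPM, 3.64-fold lower (-1.86 ± 0.12, edgeR adjusted p = 3.93e-06). In each of the 3 both sorted libraries lay well below both cytosol libraries. NDUFC2 shares 428 exonic bases on the same strand with NDUFC2-KCTD14, which had a count of 0 or 1 in each library, so the counts of NDUFC2 are uncertain.

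NDUFA5, a small subunit of the matrix arm that joins the complex early in its assembly, was the accessory gene that went the other way. Its level was 66.6 and 81.1 CPM in sorted P-bodies against 43.6 and 47.0 CPM in cytosol. Both sorted libraries lay above both cytosol libraries (log2 difference 0.70 ± 0.12, 1.63-fold, edgeR adjusted p = 0.000721). NDUFA9, a matrix-arm subunit at the joint with the membrane arm, had 23.2 and 21.9 CPM against 18.9 and 19.6 CPM. Its groups did not overlap either, but it did not pass (0.23 ± 0.11, edgeR adjusted p = 0.0931), except without the second sorted library (adjusted p = 0.0310). NDUFA11, of the membrane arm, had 9.80 and 10.5 CPM against 9.04 and 7.76 CPM (0.27 ± 0.14, adjusted p = 0.131). NDUFA7 and NDUFA13 also did not pass, with log2 differences of 0.03 and -0.32. NDUFA7 overlaps RPS28 on the other strand and NDUFA13 overlaps YJEFN3 on the same strand, so their low counts (1.67 to 4.42 CPM in any library) are uncertain. Without the first sorted library NDUFA13 passed as lower (-0.71, adjusted p = 0.00824).

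The coding sequences of the 2 higher genes and of the 2 accessory genes with the largest drops are shown because the third codon positions are compared next. Each line gives the first 150 coding bases, from the start codon, of the GENCODE release 29 reference transcript (GRCh38), 5′ to 3′. Capitals mark an A or T at the third position of a codon. NDUFA5 lies on chromosome 7 (123536997 to 123557904, minus strand), NDUFS1 on chromosome 2 (206114817 to 206159509, minus strand), NDUFC2 on chromosome 11 (78068297 to 78079862, minus strand) and NDUFB11 on chromosome X (47142216 to 47145038, minus strand).
NDUFA5: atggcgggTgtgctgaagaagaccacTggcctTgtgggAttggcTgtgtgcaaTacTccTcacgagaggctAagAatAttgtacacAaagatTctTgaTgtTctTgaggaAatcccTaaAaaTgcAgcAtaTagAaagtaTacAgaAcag
NDUFS1: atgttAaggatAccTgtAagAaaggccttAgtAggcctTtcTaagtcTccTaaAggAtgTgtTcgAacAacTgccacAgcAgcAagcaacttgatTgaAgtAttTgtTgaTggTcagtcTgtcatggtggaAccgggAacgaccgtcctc
NDUFC2: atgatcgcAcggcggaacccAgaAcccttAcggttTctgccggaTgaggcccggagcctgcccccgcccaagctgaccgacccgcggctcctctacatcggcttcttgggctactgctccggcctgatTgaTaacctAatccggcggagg
NDUFB11: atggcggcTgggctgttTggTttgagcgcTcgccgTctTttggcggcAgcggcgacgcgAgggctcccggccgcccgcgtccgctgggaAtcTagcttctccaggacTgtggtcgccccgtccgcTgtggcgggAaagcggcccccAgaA

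Of these 50 codons, 28 end in A or T in NDUFA5 and 31 in NDUFS1, against 9 in NDUFC2 and 15 in NDUFB11. Over the whole coding sequence the G or C share at the third codon position was 37.6% in NDUFA5, 38.2% in NDUFS1, 50.8% in NDUFC2 and 70.8% in NDUFB11, so NDUFC2 differs less over its whole length than in the stretch shown. All 37 genes ranged from 35.4% to 91.3% with a median of 57.8%. The 9 genes under 50% held both higher genes, 5 lower genes and 2 that did not pass. The 28 genes at or over 50% held 25 lower genes, 0 higher genes and 3 that did not pass. NDUFB3, a subunit of the membrane arm with the lowest share of all (35.4%), had 20.6 and 16.1 CPM in sorted P-bodies against 34.8 and 38.5 CPM in cytosol, so a low share did not by itself mark the higher genes (log2 difference -0.99 ± 0.13, edgeR adjusted p = 0.000161).

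Core genes had longer coding sequences at the median, with overlapping ranges: the median was 795 nt (633 to 2184 nt) in the 7 core genes and 387 nt (213 to 1134 nt) in the 29 accessory genes. The 9 genes with 600 coding nt or more held 1 higher gene, 6 lower genes and 2 that did not pass, and the 28 shorter genes held 1 higher, 24 lower and 3 that did not pass. Across the 37 genes the log2 difference had a Spearman rho of 0.45 with coding length and -0.18 with the G or C share at the third position. Across 13598 coding genes tested the same values were 0.37 and -0.53. With the length of the whole mRNA, rho was 0.19 across the 37 genes and 0.43 across the coding genes. With the length of the 3′ untranslated region it was 0.06 and 0.28. Even so, the 8 genes with 1000 nt or more of this region held both higher genes, 5 lower genes and 1 that did not pass. The 29 genes with less held 0 higher genes, 25 lower genes and 4 that did not pass. Across the 37 genes without NDUFS1 the rho with coding length was 0.41, and across the 29 accessory genes alone it was 0.29. These are descriptions across genes of the same 4 libraries, which are not independent replicates. NDUFS1 had the longest coding sequence of all 37 (2184 nt), while NDUFA5 had one of 351 nt, below the accessory median.

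**Figure D2:**
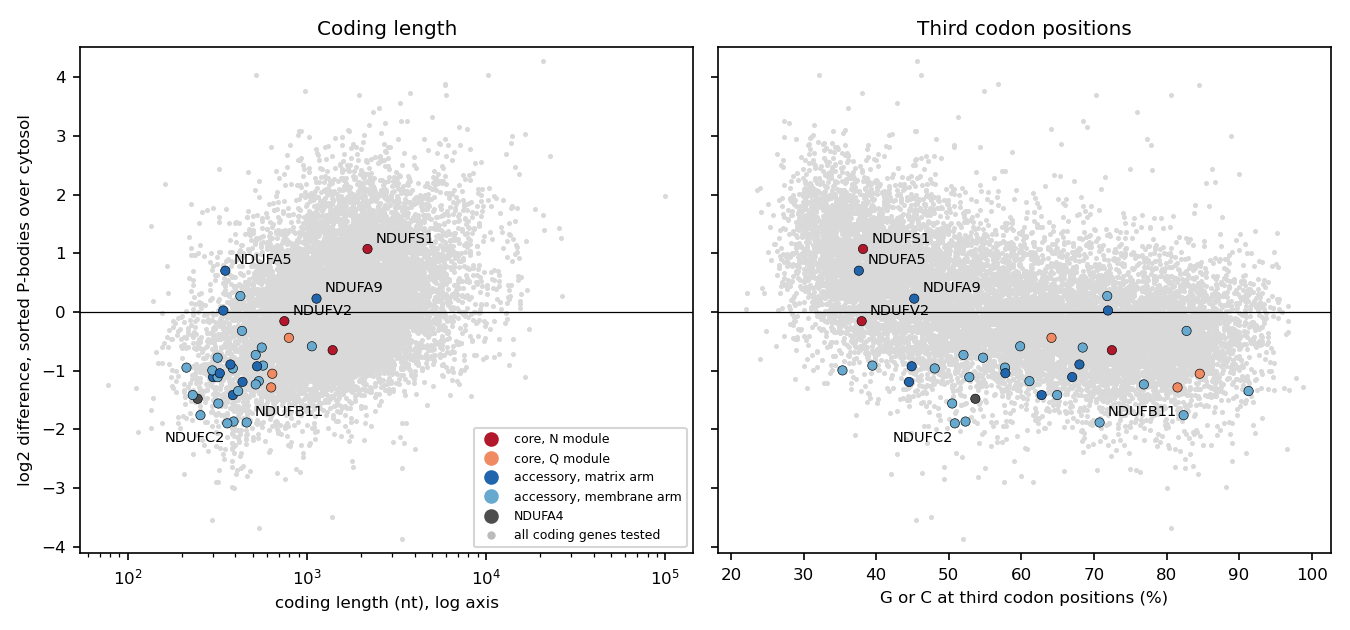
Log2 difference in abundance, sorted P-bodies over cytosol, against coding length in nucleotides on a log axis (left) and the G or C share at the third codon position in percent (right), with 36 complex I genes coloured by role over the coding genes tested in grey. NDUFS1 lies at the long end with a positive difference, and NDUFA5 is positive at 351 nt.

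NDUFS1 rose and most accessory genes fell, and the balance of core and accessory mRNA differed between the fractions. The 7 core genes summed to 577 ± 35.5 CPM in sorted P-bodies against 565 ± 7.30 CPM in cytosol (mean ± SD, n = 2 each), a difference within the spread between the sorted libraries. The 29 accessory genes summed to 754 ± 76.4 CPM in sorted P-bodies against 1540 ± 32.4 CPM in cytosol. The core sum was 74.5% and 78.8% of the accessory sum in the sorted libraries and 36.9% and 36.5% in the cytosol libraries. Without NDUFS1 the core sum was 32.9% and 32.6% of the accessory sum in sorted P-bodies against 26.7% and 26.3% in cytosol. These sums are not scaled for gene length, and no test is given, since an exact two-sided permutation test of 2 against 2 libraries cannot go below p = 0.333.

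Other mitochondrial genes give the setting. Of 38 nuclear-encoded genes of complexes II to V, 33 were lower and 2 higher in sorted P-bodies (median log2 difference -1.05), and of 77 mitochondrial ribosomal protein genes 58 were lower and 5 higher (median -0.68). Whether complex I genes differed from these lists was not tested. Of the 7 core subunits encoded by mitochondrial DNA, 6 were lower, with a median of -2.47. The 19 complex I assembly factors were more mixed, with 9 lower, 1 higher and 9 that did not pass (median -0.22). The higher one was NDUFAF4, at 42.0 and 40.3 CPM in sorted P-bodies against 24.0 and 26.3 CPM in cytosol, with no overlap (0.71 ± 0.10, edgeR adjusted p = 0.000265). The 2 largest drops were NDUFAF3, which acts with NDUFAF4 in building the Q module, at 28.5 and 22.3 against 70.3 and 72.9 CPM (-1.50 ± 0.13), and DMAC1, a factor of distal membrane-arm assembly, at 4.22 and 3.76 against 8.43 and 8.60 CPM (-1.09 ± 0.16). NDUFAB1 had 35.1 and 25.3 CPM against 66.6 and 68.9 CPM (-1.16 ± 0.15, edgeR adjusted p = 0.000103), and NDUFA4 had 34.0 and 26.8 CPM against 80.1 and 89.7 CPM (-1.48 ± 0.13, edgeR adjusted p = 1.48e-05), both lower as most accessory genes were.

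The copies of complex I mRNAs recovered from P-bodies carried more A-to-I edits than those in cytosol. The A-to-I editing score of a gene is the share of its reads that are edited. Of the 37 genes, 33 were listed with A-to-I scores in the sort (all but NDUFA4, NDUFA7, NDUFA13 and NDUFB7), and 29 had an edited read in at least 2 libraries and were tested. The score was higher in sorted P-bodies for 22 of the 29 and lower for 0 (edgeR's quasi-likelihood test on edited and unedited reads), where 73.4% of the 11303 genes tested were higher and 1.04% lower, so the members' share was near the background. At an unadjusted p under 0.05, 0 members were lower as well. With the first sorted library left out 10 members were higher, and with the second left out 14, of 23 tested each time. The pooled score of the 33 genes was 5.09% and 5.32% in sorted P-bodies against 2.07% and 2.14% in cytosol, a ratio of 2.48. For all listed genes it was 9.54% and 10.5% against 3.67% and 3.43%, a ratio of 2.82. Since most genes tested were higher, the test was also run centred on each library's median edited share. Then 7 members were higher (16.1% of all genes tested) and 4 lower (13.3% of all genes tested).

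In the N module NDUFS1 and NDUFV1 had A-to-I differences below that of the median gene. NDUFS1 had scores of 8.04% and 8.79% in sorted P-bodies against 5.40% and 5.60% in cytosol, from 8758 and 6212 reads. Both sorted scores were the higher, with a log2 odds ratio of 0.65 ± 0.14 (edgeR adjusted p = 0.000332), but relative to the median gene the difference was -0.78 (adjusted p = 6.80e-05). NDUFV1 had 3.35% and 4.06% in sorted P-bodies against 4.09% and 3.51% in cytosol. The groups overlapped (log2 odds ratio -0.05 ± 0.21, edgeR adjusted p = 0.825), and relative to the median gene NDUFV1 was lower by -1.48 (adjusted p = 9.99e-06). NDUFV2 had 0 of 166 edited reads in sorted P-bodies against 2 of 273 in cytosol and was not tested. The pooled score of the N module was 6.94% and 7.74% against 4.72% and 4.59%, a ratio of 1.58.

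NDUFS8, NDUFS7 and NDUFS3 of the Q module had low A-to-I scores in cytosol and passed as higher in sorted P-bodies. Relative to the median gene none of these genes passed by edgeR. The centred log2 odds ratios were 2.15 for NDUFS8 (edgeR adjusted p = 0.0505), 1.76 for NDUFS7 (0.221) and 0.25 for NDUFS3 (0.739). NDUFS8 had 2.14% and 0.929% in sorted P-bodies against 0.0675% and 0.211% in cytosol. The groups did not overlap (log2 odds ratio 3.53 ± 0.78, edgeR adjusted p = 0.000644), though with the first sorted library left out the adjusted p was 0.0719. NDUFS7 had 1.99% and 0.373% against 0% and 0.284%, which is 9 of 671 against 3 of 2045 reads, a ratio of 9.14 (exact 95% counting interval 2.28 to 52.5; edgeR adjusted p = 0.0120), and without the first sorted library the adjusted p was 0.578. NDUFS3 had 4.19% and 2.20% against 0.911% and 1.23%, with no overlap (log2 odds ratio 1.66 ± 0.47, edgeR adjusted p = 0.00390). Its adjusted p was 0.177 without the first sorted library. The intervals describe counting error alone, because reads that carry no molecular identifier need not be independent molecules.

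Among accessory genes the 3 largest A-to-I gains by the fitted odds ratio were in genes with no edited read in cytosol, for which the ratio depends on the fit and only a lower bound on the fold can be given. NDUFB3 had 7.72% and 6.28% in sorted P-bodies (38 of 531 reads) against 0 of 1412 reads in cytosol, at least 33.7-fold higher against a floor of 3 reads over the group (edgeR adjusted p = 5.33e-07). NDUFA8, which sits on the intermembrane-space side, had 2.33% and 2.19% (22 of 968 reads) and 0 of 2177 reads in cytosol, at least 16.5-fold higher (edgeR adjusted p = 1.09e-05). NDUFB6, of the membrane arm, had 2.14% and 1.63% (6 of 310 reads) and 0 of 893 reads in cytosol, at least 5.76-fold higher (edgeR adjusted p = 0.00290). NDUFB3 shares 218 exonic bases with FAM126B on the other strand, a gene with 4883 and 6323 counts in sorted P-bodies against 1342 and 1201 in cytosol, so both of its editing scores are uncertain. NDUFB6 shares 12 with SMIM27. These 3 genes were also higher relative to the median gene, as were NDUFA1, NDUFA5, NDUFA12 and NDUFC1.

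NDUFA5, higher in abundance in sorted P-bodies, had A-to-I scores of 5.54% and 6.74% there and 0.806% and 0.624% in cytosol. The gain of 8.63-fold (4.86 to 16.7; log2 odds ratio 3.16 ± 0.36, edgeR adjusted p = 5.28e-07) stands beside the 1.52-fold (1.34 to 1.73) of NDUFS1. The 2 counting intervals did not overlap, but they leave out the spread between libraries, and the difference between the 2 genes was not tested. NDUFC1, of the membrane arm, had 4.85% and 5.95% against 0.436% and 0.192%, a ratio of 17.2 (7.20 to 50.1). Its score is uncertain too, since NAA15 overlaps it on the other strand over 525 exonic bases and had 6233 and 8245 counts in sorted P-bodies against 2936 and 3456 in cytosol. NDUFA12, a late-joining N-module subunit, had 10.2% and 10.3% against 2.45% and 1.88%, a ratio of 4.77 (3.39 to 6.76). In NDUFC1 and NDUFA12 every sorted score was above every cytosol score.

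Other accessory genes had smaller A-to-I differences or few edits. NDUFB2 had 22.0% and 14.4% in sorted P-bodies against 20.9% and 18.4% in cytosol, overlapping groups with a log2 odds ratio of -0.07 ± 0.28 (edgeR adjusted p = 0.84). Relative to the median gene NDUFB2 was lower by -1.49 (adjusted p = 0.000325). BRAF overlaps NDUFB2 on the other strand over 1239 exonic bases, so this score is uncertain. NDUFV3, of the N module, had 9.22% and 8.14% against 6.40% and 6.36%, a narrow pass at 0.49 ± 0.21 (edgeR adjusted p = 0.0388). With the replicate number as a block its adjusted p was 0.0684, with any of the 4 libraries left out it was 0.0673 to 0.255, and relative to the median gene it was lower by -0.93 (adjusted p = 0.00101). NDUFC2, the gene with the largest drop in abundance, had 2.69% and 3.85% against 1.07% and 1.91% and did not pass (1.08 ± 0.55, edgeR adjusted p = 0.0830), although it did with the replicate block (adjusted p = 0.0490) and without the second cytosol library (adjusted p = 0.0341). NDUFS4 had 0 edited of 409 reads in sorted P-bodies against 0 of 1067 in cytosol, which allows a cytosol score of up to 0.281%. NDUFAB1 had 18.5% and 19.0% against 11.1% and 12.4%, higher in both sorted libraries (0.79 ± 0.20, edgeR adjusted p = 0.00184) but lower by -0.64 relative to the median gene (adjusted p = 0.0143). Of the assembly factors that passed, NDUFAF2 had 28 of 761 against 3 of 1715 edited reads, a ratio of 21.0 (6.50 to 108), and NDUFAF4 had 10.6% and 10.8% against 0.633% and 0.742% (log2 odds ratio 4.05 ± 0.41), with no overlap.

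**Figure D3:**
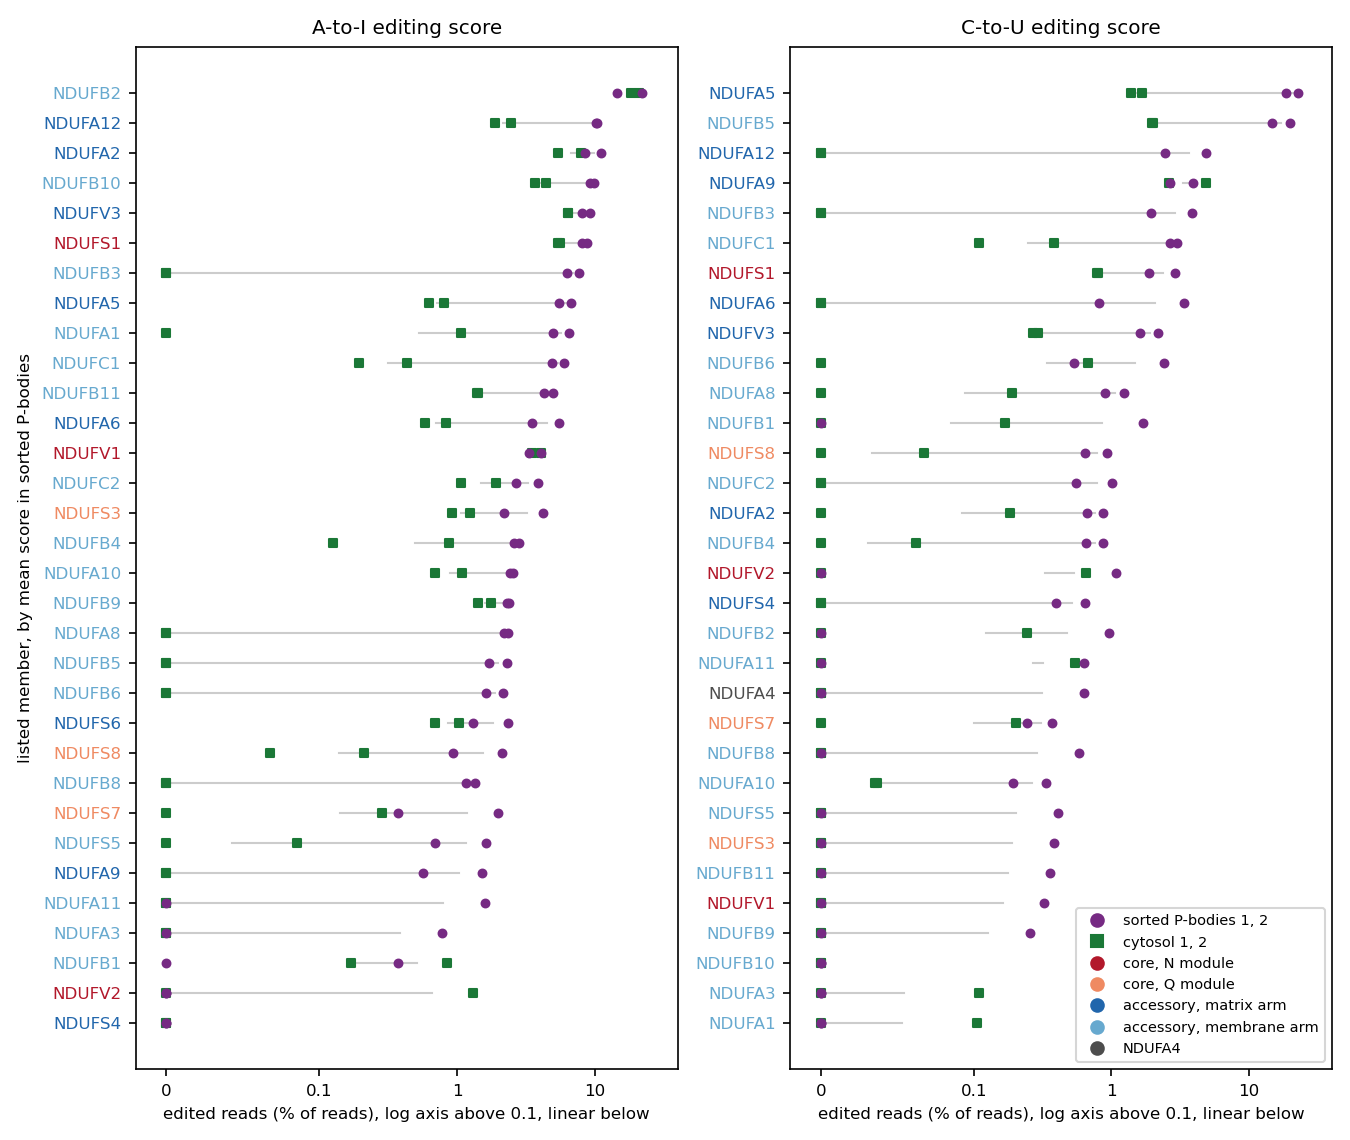
A-to-I (left, 32 of the 33 genes listed) and C-to-U (right, 32 genes listed) editing scores of complex I mRNAs in percent in each of the 4 sort libraries, on an axis that is linear below 0.1% and logarithmic above, ordered by the mean score in sorted P-bodies. NDUFB2 tops the A-to-I panel with its circles and squares mixed, and NDUFA5 tops the C-to-U panel with 22.8% and 18.6% in sorted P-bodies against 1.38% and 1.66% in cytosol.

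C-to-U edits were rare on complex I mRNAs in cytosol, and in P-bodies most of them lay on NDUFA5 and NDUFS1. The sorted libraries held 450 and 387 C-to-U edited reads of complex I genes, of which 126 and 96 were on other genes than these 2. The sort table listed 32 of the 37 genes, and 13 of the 32 had no C-to-U edited read in either cytosol library. Of the 22 genes tested, 13 had a higher score in sorted P-bodies and 0 a lower one (edgeR's quasi-likelihood test), where 68.1% of the 10613 genes tested were higher and 0.283% lower. At an unadjusted p under 0.05, 0 members were lower as well. With the first or the second sorted library left out 5 members were higher, of 14 and 16 tested. Centred on each library's median, 3 members (NDUFA5, NDUFA12 and NDUFB3) were higher and 1 (NDUFA9) lower, where 11.2% and 4.33% of all genes tested were. The pooled score of the 32 genes was 2.30% and 2.76% in sorted P-bodies against 0.203% and 0.210% in cytosol, a ratio of 12.2, and that of all listed genes was 5.25% and 6.37% against 0.764% and 0.667%, a ratio of 8.12. Without NDUFS1 and NDUFA5 the pooled complex I score was 0.916% and 1.03% against 0.117% and 0.112%, a ratio of 8.48.

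Of the core genes described here, NDUFS1 and NDUFS8 passed for C-to-U editing. NDUFS1 had 1.87% and 2.91% in sorted P-bodies against 0.783% and 0.801% in cytosol, with no overlap (log2 odds ratio 1.58 ± 0.34, edgeR adjusted p = 0.00155). Without the second sorted library its adjusted p was 0.0521, and relative to the median gene the difference was -0.71 (adjusted p = 0.155). NDUFS8 had 0.648% and 0.932% against 0.0674% and 0%, or 6 of 785 against 1 of 2905 reads, a ratio of 22.2 (2.69 to 1021; edgeR adjusted p = 0.00811). Without the first or the second sorted library its adjusted p was 0.0575 or 0.0781. NDUFS7 (0.245% and 0.372% against 0.202% and 0%) and NDUFV2 (1.08% and 0% against 0.654% and 0%) did not pass. NDUFV1 had 3 of 2248 edited reads in sorted P-bodies against 0 of 4882 in cytosol, NDUFS3 had 2 of 885 and 0 of 1852, and both had too few for the test.

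Most C-to-U edited reads of the accessory genes lay in the matrix arm, 282 and 227 in the sorted libraries against 71 and 44 in the membrane arm. This order of edited-read counts rests on NDUFA5. With that gene left out, the matrix arm no longer held more edited reads than the membrane arm in either sorted library. The matrix arm also had fewer reads in all, 3449 and 2669 against 8006 and 5408. The counts therefore do not show that its score without NDUFA5 was as low as that of the membrane arm. The 7 listed genes of the matrix arm had a pooled score of 8.18% and 8.51% in sorted P-bodies against 0.440% and 0.590% in cytosol. The 18 listed genes of the membrane arm had 0.887% and 0.814% against 0.0891% and 0.0656%. NDUFA5 gave 418 of the edited reads of the matrix arm, with scores of 22.8% and 18.6% in sorted P-bodies against 1.38% and 1.66% in cytosol. It was 13.6-fold higher (9.26 to 20.7; log2 odds ratio 4.06 ± 0.31, edgeR adjusted p = 2.25e-06), and no value of the groups came near the other. NDUFB5, of the membrane arm, had 19.7% and 14.6% against 1.96% and 2.02%, a ratio of 8.84 (4.52 to 18.6; edgeR adjusted p = 6.07e-05), from 216 reads in sorted P-bodies.

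The 3 largest C-to-U gains by the fitted odds ratio were accessory genes without an edited read in cytosol. NDUFA12 had 2.47% and 4.90% in sorted P-bodies (30 of 874 reads) against 0 of 2691 reads in cytosol, at least 30.8-fold higher (edgeR adjusted p = 5.33e-05). NDUFB3 had 3.85% and 1.95% (16 of 517 reads) and 0 of 1412 reads, at least 14.6-fold higher (edgeR adjusted p = 0.000368), with the overlap with FAM126B given above. NDUFA6, a matrix-arm subunit that binds the acyl carrier protein NDUFAB1, had 0.811% and 3.35% (12 of 639 reads) and 0 of 2109 reads, at least 13.2-fold higher (edgeR adjusted p = 0.00150). NDUFA5, NDUFA12 and NDUFB3 were thus higher for both kinds of edit, also relative to the median gene. NDUFC2 had 4 of 478 edited reads in sorted P-bodies against 0 of 1782 in cytosol, at least 4.97-fold higher (edgeR adjusted p = 0.0107). With either sorted library left out, genes with no edited read in cytosol had too few libraries for the test, for both kinds of edit.

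C-to-U scores of other accessory genes varied. NDUFB10, of the membrane arm, had 0 of 1701 reads in sorted P-bodies against 0 of 5369 in cytosol, which allows a cytosol score of up to 0.0559%, while its A-to-I score was 9.92% and 9.19% against 3.69% and 4.44%. NDUFA9 had 3.94% and 2.66% in sorted P-bodies against 2.63% and 4.88% in cytosol, overlapping groups (log2 odds ratio -0.16 ± 0.49, edgeR adjusted p = 0.789), and was lower by -2.42 relative to the median gene (adjusted p = 0.00943). NDUFV3 had 2.19% and 1.62% against 0.292% and 0.271%, a ratio of 6.95 (3.18 to 16.4), with no overlap. NDUFAB1 had 18 of 784 against 1 of 2530 edited reads, a ratio of 58.1 (9.17 to 2420; edgeR adjusted p = 0.000259). The largest gains of assembly factors were those of TMEM126B, a membrane protein of the assembly machinery, with 72 of 1017 against 1 of 1712 reads (ratio 121, 21.1 to 4853), and of NDUFAF2, with 10 of 763 against 0 of 1723 reads (at least 7.53-fold higher).

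No complex I mRNA level passed the test after siRNA treatment against EDC4. The target itself fell from 110 and 106 CPM in the siNC libraries to 40.3 and 32.7 in the siEDC4 libraries, with no overlap (log2 difference -1.56 ± 0.14, edgeR adjusted p = 2.63e-25). The measure is the reads column of the A-to-I table, which lists 33 of the 37 genes (all but NDUFA13, NDUFB6, NDUFB8 and NDUFV2). Of these 33, 0 passed in either direction by edgeR's quasi-likelihood test, where 0.432% of the 10642 genes tested were higher and 0.132% lower (46 and 14 genes), and 0 passed by DESeq2. With the replicate block over 4 libraries 303 genes were higher and 218 lower, and without the first siNC library 24 and 8, with 0 members among them in either fit. At an unadjusted p under 0.05 there were 786 of the 10642 genes tested and 3 of the 33 members, a share near the background. These 3 members were all lower. They were NDUFS3 (-0.28 ± 0.13), NDUFC1 (-0.30 ± 0.15) and NDUFS4 (-0.36 ± 0.18). The 33 log2 differences, siEDC4 over siNC, ran from -0.37 (NDUFA7, at 1.15 to 2.26 CPM) to 0.19 (NDUFA8), with a median of -0.05 against 0.00 over all genes tested.

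The genes that differed most in the sort had differences near their standard errors after EDC4 knockdown. NDUFS1 had 176 and 172 CPM in siEDC4 cells and 170 and 171 in siNC cells (log2 difference 0.03 ± 0.11, edgeR adjusted p = 0.992). NDUFA5 had 55.6 and 67.9 against 65.5 and 66.2, overlapping groups (-0.09 ± 0.14). NDUFB11 had 153 and 166 against 147 and 152 (0.10 ± 0.11), and NDUFC2 had 22.0 and 22.3 against 24.2 and 27.3 (-0.21 ± 0.19). Of the other core genes, NDUFV1 had 161 and 183 against 179 and 182, an overlap. NDUFS7 had 78.9 and 83.6 against 97.9 and 95.3 (-0.25 ± 0.13), and NDUFS8 had 98.3 and 98.1 against 109 and 106 (-0.13 ± 0.12), both below the siNC values without passing. Of the accessory genes with the most reads in siNC cells, NDUFA10, of the membrane arm, had 142 and 140 against 148 and 152 (-0.09 ± 0.11), also without a call. With 2 libraries against 1 summed control, a p that misses the threshold does not show that levels were equal.

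**Figure D4:**
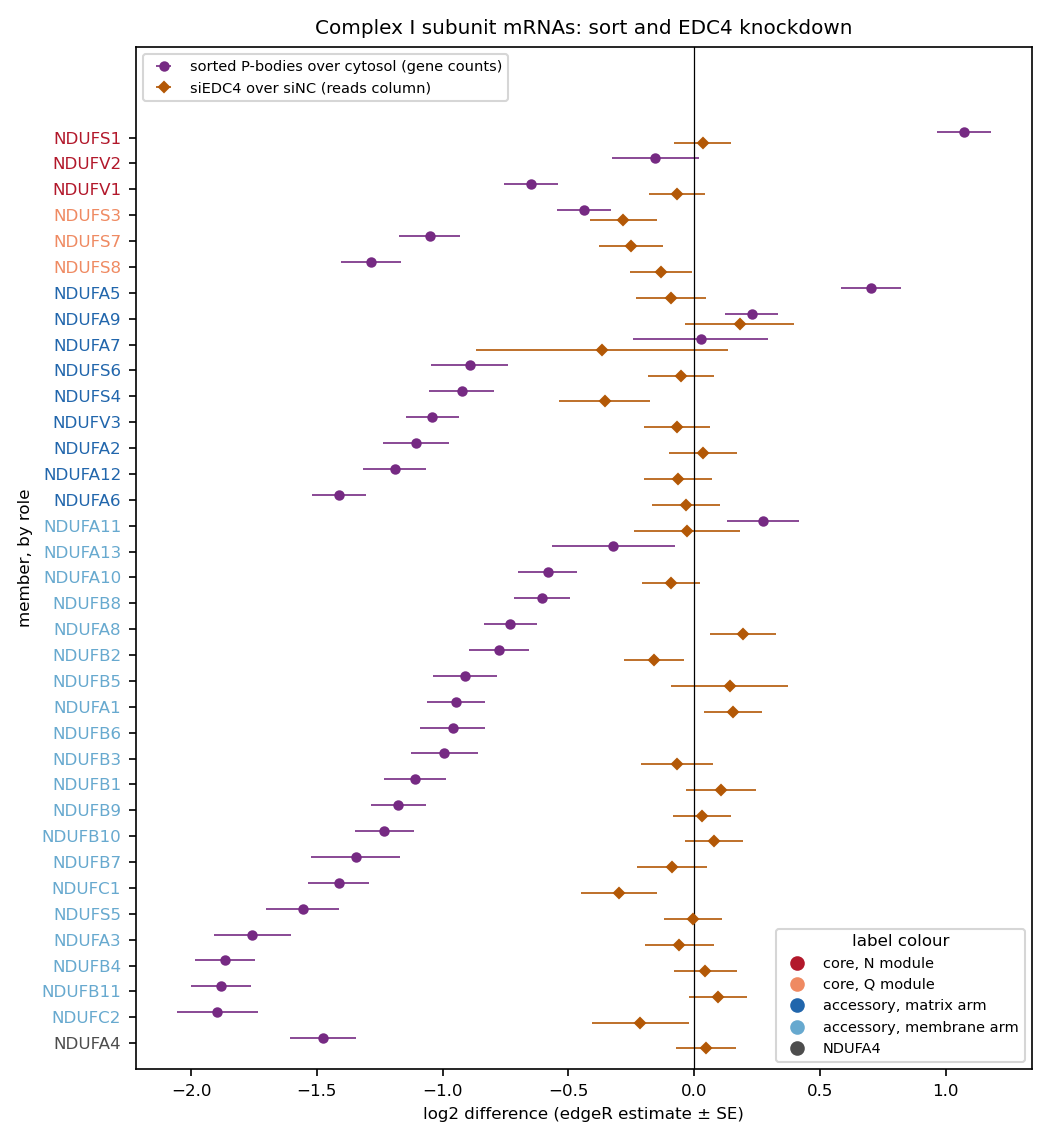
Log2 difference ± SE of 36 complex I genes by role, in abundance between sorted P-bodies and cytosol (circles) and in reads between siEDC4 and siNC cells (diamonds). The circles range from -1.90 (NDUFC2) to 1.07 (NDUFS1), while the diamonds lie between -0.37 and 0.19 around 0.

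Editing scores of complex I mRNAs also did not pass after EDC4 knockdown. For A-to-I editing 0 of 23 members and 0 of 9271 genes tested passed by edgeR, and 0 by limma. At an unadjusted p under 0.05 there were 0 members and 495 genes. The pooled score of the listed members was 1.15% and 1.17% in siEDC4 cells and 1.13% and 0.968% in siNC cells. NDUFS1 had 5.13% and 5.09% against 5.77% and 5.09%, and NDUFB2 had 8.30% and 8.05% against 8.06% and 4.38%. NDUFV1 had 1.33% and 1.05% against 0.986% and 1.05%, NDUFA5 had 1.2% and 1.81% against 1.47% and 1.05%, and the values of the groups overlapped or touched in each of these.

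For C-to-U editing 0 of 28 members and 0 of 9745 genes passed by edgeR, and 0 by limma. At an unadjusted p under 0.05 there were 405 genes and 4 members, all accessory and all higher in siEDC4 cells, with adjusted p = 0.993 by edgeR's quasi-likelihood test in each. NDUFV3 had 1.42% and 1.30% against 0.182% and 0.217%. NDUFB6 had 1.13% and 0.798% against 0% and 0%. NDUFB1, a small membrane-arm subunit, had 1.79% and 1.49% against 0.513% and 0%, and NDUFA12 had 1.97% and 1.90% against 0.206% and 1.01%. These 4 were picked by their unadjusted p, so the lack of overlap between their groups adds no support. Each rests on 7 to 16 edited reads in siEDC4 cells. The genes with the most C-to-U edits overlapped between the groups. NDUFB5 had 19.8% and 15.3% against 20.5% and 15.0%, NDUFV1 had 8.12% and 5.19% against 7.01% and 7.36%, and NDUFA5 had 7.27% and 5.14% against 5.38% and 6.04%. NDUFS1 had 1.51% and 1.66% against 1.35% and 1.34%, a log2 odds ratio of 0.23 ± 0.43. With the replicate block over 4 libraries, 29 genes were higher and 1 lower for A-to-I editing and 3 were higher and 1 lower for C-to-U editing, none of them a complex I gene.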

How the data were processed

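PB-TRIBE-STAMP RNA was sequenced from HEK293T in 4 groups of 2 libraries. TRIzol extraction and a YEASEN library kit are named per the labels' protocols. Per the submitters' processing notes the authors used FastQC 0.11.9, cutadapt 1.18, STAR 2.7.9a and featureCounts 2.0.1 with hg38. The annotation, the strand setting, the treatment of reads with several matches and the calling of edited sites are not stated in any source used here, so overlapping genes are uncertain. The deposited files hold raw counts per gene for the sort, edited reads per gene as counts, reads per gene treated as estimated counts (whole numbers except in 3 broken lines of 1 gene per table, which were left out), and editing scores as a fraction of edited reads in reads, which the authors deposited and which equal the ratio of the 2 columns. No gene counts were used for the knockdown, so its reads columns stood in for abundance.

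Abundance and reads were tested with edgeR 4.0.16 (R 4.3.3; TMM, filterByExpr, quasi-likelihood F test) over the whole table with Benjamini-Hochberg adjustment at 0.05. Editing was tested with edgeR on edited and unedited reads, for genes with edited reads in 2 or more libraries. Values in CPM were scaled by TMM. Standard errors are the estimate divided by the square root of F. DESeq2 1.42.0 and limma 3.58.1 (on log2 of the score plus 1.20% and 0.234% in the sort for A-to-I and C-to-U, and 0.454% and 0.579% in the knockdown) were alternatives, with scaling, filters, coverage of 50 reads, centring, left-out libraries and the replicate block. The main edgeR fits were tested on simulated data, and the alternatives, centring among them, were not. Few genes were changed in the simulations, equally in both directions. They therefore do not cover a shift of most genes in the same direction, as was seen for editing in the sort. The labels give replicate numbers as batches. The deviations of same-numbered libraries from their group means correlated at 0.04 in the sort and -0.03 in the knockdown reads.

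Members and gene lists were chosen with earlier results of these data known. The text names core genes, the 3 largest accessory changes among those that passed (or, with fewer than 3, those with the most control reads), passing genes against the majority, genes set side by side, NDUFAB1 and up to 2 assembly factors each way. NDUFA1, NDUFA7, NDUFA10, NDUFA11, NDUFA13, NDUFB1, NDUFB2, NDUFB10, NDUFC1, NDUFS4 and NDUFV3, and NDUFA9, NDUFA12, NDUFB5 and NDUFB6 in some comparisons, were named after their values were seen. The values of 1 member are not reported here, and the figures leave it out. Coding sequence and lengths are from GENCODE release 29.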

Additional observations from a re-analysis of the deposited data

How the results depend on the processing

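With 2 libraries per group, 1 library can decide a call. Depth limits the editing results: the complex I genes that passed without an edited read in cytosol rest on 4 to 38 edited reads in sorted P-bodies. The counts of complex I genes in abundance stayed at 30 lower and 2 higher under DESeq2, other size factors, no filter, removal of the length trend and the replicate block, and were 29 to 31 and 2 to 3 with a library left out. Over all genes, leaving out a library gave 3976 to 6507 lower and 4020 to 6208 higher.

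Among single genes that did not pass in abundance the sign changed for NDUFA7 with library size only (-0.17), with no filter (-0.010) and with a library left out (-0.19 to 0.18), for NDUFA9 with the length trend removed (-0.064, and -0.066 with the replicate block) and for NDUFV2 likewise (0.10, and 0.10 with the block). The cause was not tested.

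For A-to-I editing in the sort, centring on the library median gave 7 complex I genes higher and 4 lower, and 1825 and 1501 of all genes. It turned the sign of NDUFA2 (-0.84), NDUFAB1 (-0.64), NDUFB10 (-0.10), NDUFB9 (-0.85), NDUFC2 (-0.33), NDUFS1 (-0.78) and NDUFV3 (-0.93), since it measures each gene against the median gene. The count of all genes lower was 319 by limma and 71 with the replicate block. With a library left out, 10 to 21 members and 7358 to 7910 of all genes were higher, and 0 members and 44 to 98 genes lower. NDUFB2 then ranged from -0.53 to 0.21 and NDUFV1 from -0.18 to 0.11.

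For C-to-U editing in the sort, centring gave 3 members higher and 1 lower, and 1188 and 460 of all genes, and turned NDUFS1 (-0.71), NDUFS7 (-0.46) and NDUFV2 (-1.18). By limma 270 of all genes were lower. With a library left out, 5 to 14 members and 5282 to 7053 genes were higher and 0 members and 12 to 21 genes lower, NDUFA9 ranged from -0.55 to 0.37 and NDUFV2 from -0.0095 to 1.41.

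After EDC4 knockdown 0 members passed in any alternative run that gave p-values, for reads or for either edit. For reads over all genes, 4 libraries gave 111 higher and 43 lower, the replicate block over 4 libraries 303 and 218, DESeq2 2 and 1, library size only 8 lower, and a left-out siNC library 24 to 38 higher and 8 to 13 lower. With the replicate block 29 genes were higher and 1 lower for A-to-I and 3 and 1 for C-to-U, and centring gave 1 lower for C-to-U. Runs without a siEDC4 library left 1 sample against 1 and gave no p-value, so no gene could pass in them. Signs changed, with no call, for NDUFA5 (-0.035), NDUFB11 (-0.22) and NDUFV1 (-0.069) centred and NDUFC2 by limma (0.22) in A-to-I, and for NDUFA5 centred in C-to-U (-0.064). With a library left out the ranges were -0.055 to 0.12 for NDUFB9 reads, -0.32 to 0.21 for NDUFAB1, -0.99 to 1.99 for NDUFC2 and -0.18 to 0.0051 for NDUFS1 in A-to-I, and -0.28 to 0.27 for NDUFB5 and -1.08 to 0.35 for NDUFS7 in C-to-U.

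The replicate block changed the A-to-I calls of NDUFC2 (adjusted p = 0.0490) and NDUFV3 (adjusted p = 0.0684) by edgeR in the sort and no other call among the complex I genes named.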

Other observations

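Some complex I C-to-U scores in the unsorted cells of the knockdown experiment lay outside those of both fractions of the sort, and others lay near or between them. The tables were made separately, so the values are set side by side without a test. NDUFV1, the NADH-binding core subunit, had 5.19% to 8.12% in the 4 unsorted libraries, against 0% and 0.325% in sorted P-bodies, and 0% in both cytosol libraries. NDUFB5 had 15.0% to 20.5% in unsorted cells, near the 19.7% and 14.6% of sorted P-bodies and above the 1.96% and 2.02% of cytosol. NDUFA5 had 5.14% to 7.27% in unsorted cells, between the 1.38% and 1.66% of cytosol and the 22.8% and 18.6% of sorted P-bodies. The pooled C-to-U score of all listed genes lay between the fractions as well. It was 2.07% to 2.57% in unsorted cells, against 0.764% and 0.667% in cytosol and 5.25% and 6.37% in sorted P-bodies.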
